A study of Mus musculus with 3 samples.

Results

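The 10 glycolysis genes *Slc2a1*, *Hk2*, *Gpi1*, *Pfkp*, *Aldoa*, *Tpi1*, *Pgk1*, *Eno1*, *Pkm* and *Ldha*, of 32285 genes counted, were followed in dendritic cells from mouse tumours. They were chosen by name, as a set of proteins that runs from glucose uptake to lactate, and each was found in the deposited matrices under its symbol and Ensembl identifier. Their raw counts were read in type 1 conventional dendritic cells (cDC1s), in the 12 clusters of those cells, and in other barcodes of the same libraries that held *Cd209a* or *C1qa*.

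The study asked which states cDC1s take in a tumour and where in it they lie. Its single-cell RNA sequencing covered 3 libraries, 1 for each genotype: wild-type mice, mice without secreted gelsolin, a protein that binds actin filaments, and mice that lack the receptor DNGR-1 (*Clec9a*) as well. Each library was a pool of mice on a C57BL/6J background with MCA205 LA-OVA tumours, a fibrosarcoma line, in both flanks, taken on day 5. The wild type (WT) pool came from 25 male and 12 female mice, the *sGsn-/-* pool from 15 male and 16 female mice, and the *sGsn-/- Clec9a-/-* pool from 10 male and 17 female mice. All were 6 to 20 weeks old, had shared cages for over 3 weeks, and no treatment other than the tumour cells is named for any group. The sorted cells were CD45+, CD11c+ and MHC class II+, without lineage markers or CD88, and pre-cDCs, cDC1s and cDC2s were mixed in parts of 1, 1 and 2. No genotype had a replicate library, so a difference between genotypes cannot be told apart from a difference between pools, and the SD over the 3 libraries given below holds the genotypes as well as the spread between pools.

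Glycolysis splits glucose into pyruvate in the cytosol and yields ATP without oxygen; lactate dehydrogenase then turns pyruvate into lactate and restores the NAD+ that the pathway consumes. Dendritic cells and macrophages are known to take up more glucose when they are activated, and several genes of the pathway are known targets of the oxygen-sensitive factor HIF-1α. A transcript level is not a rate of flux, and neither flux nor protein was measured in these libraries.

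The libraries held 12763, 8173 and 9273 barcodes with 176578136, 109270958 and 113411930 UMIs (unique molecular identifiers, each standing for 1 captured transcript) in WT, *sGsn-/-* and *sGsn-/- Clec9a-/-* mice, and every set of values by library below keeps this order. Levels are given as CPM, the UMIs of a gene per 1000000 UMIs of the same cells. The 10 genes together took 2725, 2632 and 2746 CPM of all barcodes. The deposited table named 2316, 1712 and 1778 cDC1s. The study had excluded proliferating, dying, plasmacytoid, NK and T cells before it identified them, and no cell type was excluded from the barcodes outside the table. Outside that table, barcodes with at least 3 UMIs of *C1qa* and more of it than of *Cd209a* numbered 1935, 782 and 1132 (*C1qa*+ barcodes below), and those with at least 3 UMIs of *Cd209a* and more of it than of *C1qa* numbered 2637, 1150 and 1505 (*Cd209a*+ barcodes). Median depth was 13501 UMIs in cDC1s, 13173.5 in *Cd209a*+ barcodes and 16672 in *C1qa*+ barcodes.

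Marker genes were summed in each cell set. The 8 cDC1 markers summed to 3668, 3554 and 3648 CPM in cDC1s against 547, 693 and 682 in *Cd209a*+ barcodes and 485, 605 and 642 in *C1qa*+ barcodes, with *Naaa* the most abundant in each. Without *Cd209a*, which chose the barcodes, the other 5 cDC2 markers summed to 33.0, 30.9 and 32.7 CPM in cDC1s, 1226, 1219 and 1183.5 in *Cd209a*+ barcodes and 883, 954 and 887 in *C1qa*+ barcodes (*Mgl2* the most abundant in each), and 0, 5 and 4 of them reached 10 CPM. Without *C1qa*, the other 8 macrophage markers summed to 76.6, 47.2 and 59.6 CPM in cDC1s (*Apoe* the most abundant), 352, 306 and 386 in *Cd209a*+ barcodes (*Csf1r*) and 7189, 6125 and 5878 in *C1qa*+ barcodes (*C1qb*), where all 8 reached 10 CPM. Of 5 monocyte markers, 3 reached 10 CPM or more and 1 was at 0 in every set, and they summed to 706, 838 and 806 CPM in cDC1s (*Plac8* the most abundant), 1174, 1404 and 1307 in *Cd209a*+ barcodes (*Plac8*) and 895, 952 and 917 in *C1qa*+ barcodes (*Ccr2*). The 5 NK cell markers summed to 9.43, 35.7 and 16.4 CPM, 96.2, 228 and 229.6, and 87.1, 121 and 156 in these sets (*Gzma* the most abundant in each, none at 0). The 3 pre-cDC markers, of cells that were part of the sorted mix, summed to 192, 181 and 181 CPM in cDC1s (*Flt3* the most abundant), 293, 337 and 277 in *Cd209a*+ barcodes (*Cd7*) and 42.7, 46.9 and 54.7 in *C1qa*+ barcodes (*Flt3*), with none at 0. The 4 plasmacytoid markers summed to 6.67, 9.17 and 8.85 CPM, 74.8, 156 and 92.2, and 9.13, 10.2 and 13.3 in these sets (*Siglech* the most abundant in each, none at 0). The part of other cell types in the levels of the glycolysis genes was not tested. *C1qa* and *Cd209a* themselves set the groups and are not findings. A *C1qa* UMI was found in 7.99% of cDC1s and 3 or more in 0.310%, and a *Cd209a* UMI in 9.66% and 3 or more in 3.01%. *Clec9a* had 5502, 3970 and 2 UMIs in cDC1s, 168, 168 and 0.0931 CPM, a ratio of 0.000553 (95% interval 6.69e-05 to 0.00200) for *sGsn-/- Clec9a-/-* over *sGsn-/-*. *Gsn* was counted at 152, 169 and 167 CPM, and these counts do not separate the secreted form, so the *sGsn* label could not be checked by them.

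Most of the 10 genes stood higher outside the cDC1s, and the phosphofructokinase gene *Pfkp* stood lower. In *C1qa*+ barcodes against cDC1s, 8 of the 10 genes were higher and 2 lower at an adjusted p under 0.05, where 34.1% of 12832 genes tested were higher and 33.0% lower. The lower genes were *Pfkp* and *Ldha*, and the call of *Ldha* was lost with any 1 library left out, which made 1 lower. In *Cd209a*+ barcodes against cDC1s, 6 were higher and 2 lower, beside 31.0% and 28.1% of all genes. Between *C1qa*+ and *Cd209a*+ barcodes, 8 were higher and 1 lower in the former, beside 17.1% and 16.7%. The median log2 fold change of the 10 genes was 0.96, 0.46 and 0.39 in these comparisons, and that of all genes tested 0.00 in each. All 10 passed the filter on low counts. Adjusted p is from the quasi-likelihood test of edgeR, corrected after Benjamini and Hochberg over all genes tested, on sums of UMIs in 3 libraries per cell set; the comparisons share their sums, so they are not independent of each other.

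Scaling matters for the smaller of these differences. TMM factors correct for a few abundant genes taking up reads. Without them, the median log2 fold change of all genes against cDC1s was 0.18 for *C1qa*+ and 0.16 for *Cd209a*+ barcodes, beside 0.00 with them. Barcodes with a UMI of the cycling genes *Mki67* or *Top2a* made up 13.0% of cDC1s, 24.7% of *Cd209a*+ and 36.2% of *C1qa*+ barcodes, and the 5 cycling markers summed to 21.6, 24.9 and 21.8 CPM in cDC1s, 155, 261 and 214 in *Cd209a*+ barcodes and 209, 358 and 357 in *C1qa*+ barcodes (*Mki67* the most abundant in the first, *Top2a* in the others, none at 0). The study had taken proliferating cells out before it identified its cDC1s, and the other sets had no such filter. These shares and sums therefore compare sets that were filtered differently, and the part of that filter in them was not tested. With barcodes that held *Mki67* or *Top2a* left out of every set, the log2 fold changes of *C1qa*+ barcodes over cDC1s were 2.18 for *Slc2a1*, 0.63 for *Hk2* and −1.61 for *Pfkp*.

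**Figure D1:**
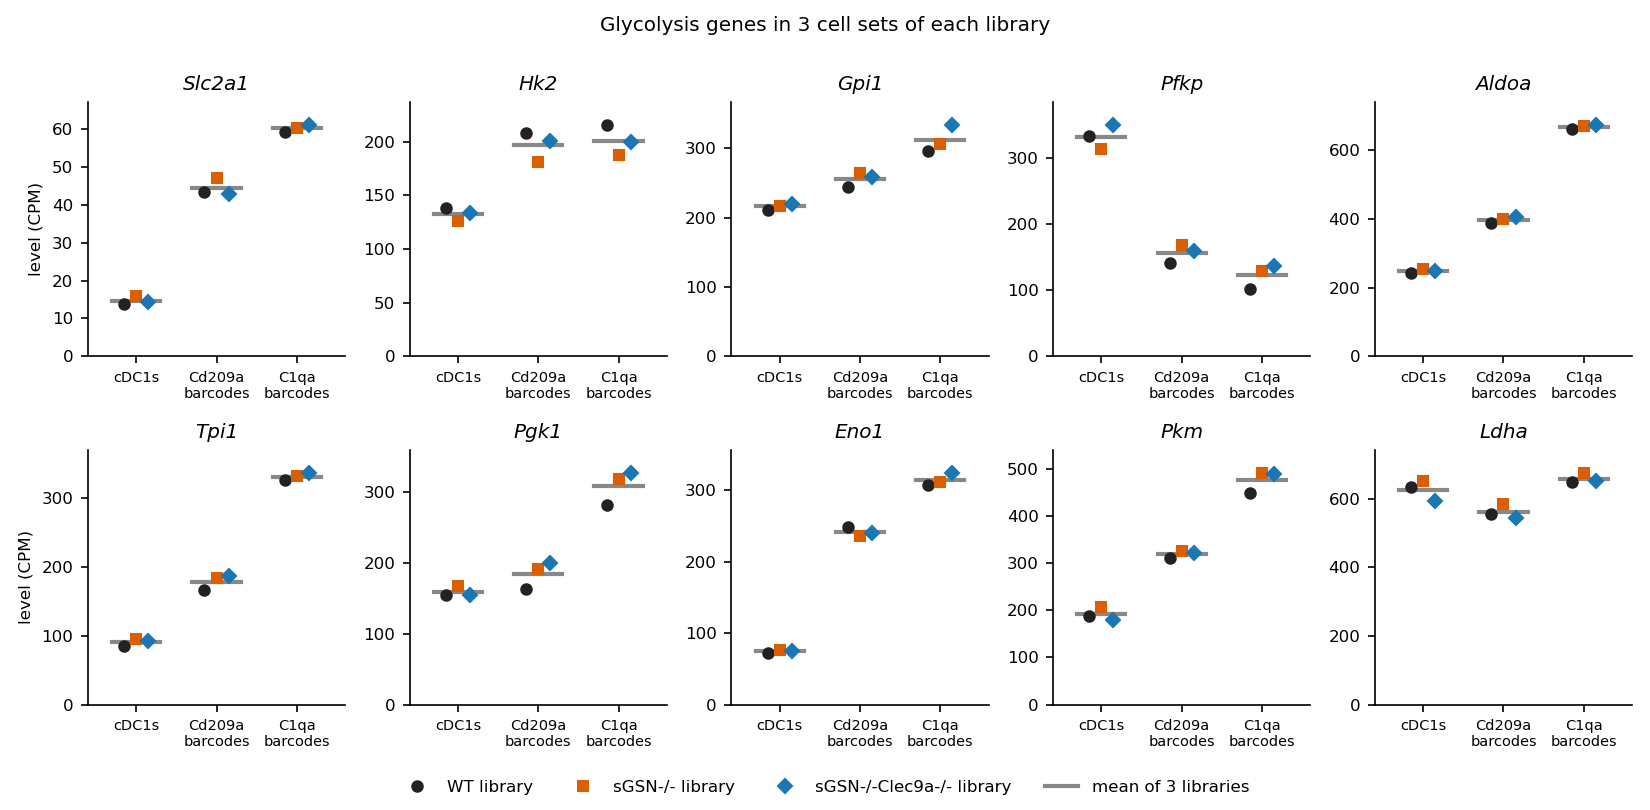
Level of each of the 10 glycolysis genes in CPM (y axis of each panel, from 0) in cDC1s, *Cd209a*+ barcodes and *C1qa*+ barcodes, with 1 point per library and a bar at the mean of 3 libraries. *Eno1* lay at 72.8 to 76.1 CPM in cDC1s and at 308 to 324 CPM in *C1qa*+ barcodes, whereas *Pfkp* lay at 313 to 350.1 CPM in cDC1s and at 102 to 137 CPM in *C1qa*+ barcodes.

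The pathway starts with *Slc2a1* (ENSMUSG00000028645, chr4:119108711-119137983, plus strand, GRCm38), which encodes the glucose transporter GLUT1. It was counted at 13.8, 15.8 and 14.3 CPM in cDC1s, 43.4, 47.1 and 42.8 in *Cd209a*+ barcodes and 59.3, 60.3 and 60.9 in *C1qa*+ barcodes. The 3 sets did not overlap, and the mean was 14.7 ± 1.05 CPM (SD, n = 3), 44.4 ± 2.32 and 60.2 ± 0.849. Its log2 fold change over cDC1s was 1.86 (SE 0.06, adjusted p = 5.4e-10) in *C1qa*+ and 1.44 (SE 0.06, adjusted p = 6.3e-09) in *Cd209a*+ barcodes, higher in 3 of 3 libraries in both. Between those sets it was 0.42 higher in *C1qa*+ barcodes (SE 0.06, adjusted p = 0.0002, 3 of 3 libraries).

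*Hk2* (ENSMUSG00000000628, chr6:82725025-82774454, minus strand) encodes hexokinase 2, which phosphorylates glucose and so keeps it in the cell. Its levels were 138, 127 and 134 CPM in cDC1s, 209, 181 and 201 in *Cd209a*+ barcodes and 215, 188 and 199.7 in *C1qa*+ barcodes. Both sets outside the table lay above cDC1s and overlapped each other. The log2 fold change over cDC1s was 0.42 (SE 0.08, adjusted p = 0.00062) in *C1qa*+ and 0.41 (SE 0.08, adjusted p = 0.00096) in *Cd209a*+ barcodes, higher in 3 of 3 libraries. Between *C1qa*+ and *Cd209a*+ barcodes it was 0.01 (SE 0.08, adjusted p = 0.91), higher in 2 libraries and lower in 1. It was −0.0023 without the *sGsn-/-* library, and came to 0.18 (adjusted p = 0.049, of 0.049 to 0.98 over the alternatives) once barcodes with *Mki67* or *Top2a* were left out.

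*Gpi1* (ENSMUSG00000036427, chr7:34201330-34230336, minus strand), whose enzyme turns glucose 6-phosphate into fructose 6-phosphate, differed less from cDC1s than *Hk2* did in both sets. It stood at 212, 217 and 219.9 CPM in cDC1s, 244, 264 and 259 in *Cd209a*+ barcodes and 296, 307 and 333 in *C1qa*+ barcodes. In *C1qa*+ barcodes it was higher than in cDC1s by 0.35 on the log2 scale (SE 0.06, adjusted p = 0.00035) and higher than in *Cd209a*+ barcodes by 0.27 (SE 0.06, adjusted p = 0.0054), in 3 of 3 libraries each time. For *Cd209a*+ barcodes over cDC1s the value was 0.08 (SE 0.06, adjusted p = 0.28, higher in 3 of 3 libraries), which did not pass, and without TMM factors it was 0.24, which did.

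*Pfkp* (ENSMUSG00000021196, chr13:6579768-6648777, minus strand), the platelet-type isoform of phosphofructokinase and thus a gene of the first committed step, ran the other way. It was counted at 334, 313 and 350.1 CPM in cDC1s, 141, 169 and 159.7 in *Cd209a*+ barcodes and 102, 129 and 137 in *C1qa*+ barcodes. Each cDC1 sum lay above every sum of the other sets. Against cDC1s its log2 fold change was −1.62 (SE 0.11, adjusted p = 1.1e-07) in *C1qa*+ and −1.25 (SE 0.10, adjusted p = 1.2e-06) in *Cd209a*+ barcodes, lower in 3 of 3 libraries. It was also lower in *C1qa*+ than in *Cd209a*+ barcodes, by a log2 fold change of −0.36 (SE 0.10, adjusted p = 0.02, lower in 3 of 3 libraries), and this call was lost without the *sGsn-/-* library (−0.35, adjusted p = 0.13, of 0.0003 to 0.13 over the alternatives). The other phosphofructokinase genes were looked up after these values were seen. The liver-type *Pfkl* had a mean of 16.2 CPM in cDC1s, 24.3 in *Cd209a*+ and 36.3 in *C1qa*+ barcodes, with a log2 fold change of 0.99 in *C1qa*+ barcodes over cDC1s (SE 0.09, adjusted p = 2.3e-06, higher in 3 of 3 libraries). The muscle-type *Pfkm* stayed under 2 CPM in every set, at 0.932, 1.21 and 1.89 CPM.

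The middle of the pathway cleaves the sugar and makes the first ATP. *Aldoa* (ENSMUSG00000030695, chr7:126795234-126800751, minus strand) encodes aldolase A, which splits fructose 1,6-bisphosphate. Its levels were 242, 253 and 248 CPM in cDC1s, 389, 399.6 and 404 in *Cd209a*+ barcodes and 661, 671 and 672 in *C1qa*+ barcodes, with no overlap between sets. The log2 fold change was 1.255 in *C1qa*+ barcodes over cDC1s (SE 0.05, adjusted p = 1.6e-09), 0.52 in *Cd209a*+ barcodes over cDC1s (SE 0.05, adjusted p = 3.1e-06) and 0.73 between the former and the latter (SE 0.05, adjusted p = 9.2e-07), each higher in 3 of 3 libraries. A second identifier with the symbol *Aldoa* (ENSMUSG00000114515) held 1, 2 and 0 UMIs and was not added.

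*Tpi1* (ENSMUSG00000023456, chr6:124810586-124814296, minus strand) encodes triosephosphate isomerase, which interconverts the products of that split. It stood at 84.5, 95.7 and 93.0 CPM in cDC1s, 166, 183 and 186 in *Cd209a*+ barcodes and 326, 331 and 336 in *C1qa*+ barcodes. The sets did not overlap. The log2 fold change was 0.81 in *Cd209a*+ barcodes over cDC1s (SE 0.07, adjusted p = 1e-06) and 0.87 in *C1qa*+ over *Cd209a*+ barcodes (SE 0.07, adjusted p = 2.2e-06), higher in 3 of 3 libraries each. From cDC1s to *C1qa*+ barcodes the log2 fold change was 1.69 (SE 0.07, adjusted p = 1.9e-09, higher in 3 of 3 libraries).

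*Pgk1* (ENSMUSG00000062070, chrX:106187100-106203699, plus strand) encodes phosphoglycerate kinase 1, which makes ATP. It was counted at 154, 167 and 155 CPM in cDC1s, 162, 191 and 199 in *Cd209a*+ barcodes and 281, 317 and 326 in *C1qa*+ barcodes. The first 2 sets overlapped and the third lay above both. In *C1qa*+ barcodes it was 0.78 higher than in cDC1s (SE 0.08, adjusted p = 5.6e-06) and 0.73 higher than in *Cd209a*+ barcodes (SE 0.08, adjusted p = 4.4e-05) on the log2 scale, in 3 of 3 libraries. Between *Cd209a*+ barcodes and cDC1s the log2 fold change of 0.05 (SE 0.08, adjusted p = 0.59, higher in 3 of 3 libraries) did not pass. Its sign depended on the setting: it was −0.11 after each cell was thinned to 3000 UMIs, −0.02 without the *sGsn-/- Clec9a-/-* library, and 0.22, past the threshold, without TMM factors.

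At the lower end, *Eno1* (ENSMUSG00000063524, chr4:150236721-150248879, plus strand) encodes α-enolase, which forms phosphoenolpyruvate. Its counts came to 72.8, 76.1 and 75.02 CPM in cDC1s, 249, 236 and 241 in *Cd209a*+ barcodes and 308, 311 and 324 in *C1qa*+ barcodes. *Eno1* and *Slc2a1* had the largest log2 fold changes of the 10 genes in both comparisons with cDC1s under every setting tried. For *Eno1* it was 1.90 in *C1qa*+ (SE 0.06, adjusted p = 2.2e-10) and 1.54 in *Cd209a*+ barcodes (SE 0.06, adjusted p = 1.7e-09), higher in 3 of 3 libraries. Between *C1qa*+ and *Cd209a*+ barcodes the difference was 0.36 (SE 0.05, adjusted p = 0.00035, higher in 3 of 3 libraries). The near-identical copy *Eno1b* had a mean of 1.17, 3.04 and 4.18 CPM in the sets. How reads common to both genes were counted was not checked.

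*Pkm* (ENSMUSG00000032294, chr9:59656368-59679375, plus strand) encodes pyruvate kinase, and its counts do not separate the M1 and M2 splice forms. It stood at 187, 207 and 179.8 CPM in cDC1s, 310.5, 325 and 322 in *Cd209a*+ barcodes and 449, 489.8 and 489 in *C1qa*+ barcodes. As with *Aldoa* and *Tpi1*, the sets did not overlap and the *Cd209a*+ barcodes lay between the others. The log2 fold change over cDC1s was 1.14 (SE 0.06, adjusted p = 1.1e-08) and 0.58 (SE 0.06, adjusted p = 4.7e-06), and between *C1qa*+ and *Cd209a*+ barcodes 0.56 (SE 0.06, adjusted p = 1.9e-05), higher in 3 of 3 libraries throughout.

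*Ldha* (ENSMUSG00000063229, chr7:46841475-46855627, plus strand), the lactate dehydrogenase gene that closes the route to lactate, was lowest in *Cd209a*+ barcodes. It was counted at 634, 651 and 593 CPM in cDC1s, 556, 585 and 543 in *Cd209a*+ barcodes and 647, 673 and 652 in *C1qa*+ barcodes. The *Cd209a*+ barcodes overlapped neither of the other sets, which overlapped each other. In *Cd209a*+ barcodes it was lower than in cDC1s, with a log2 fold change of −0.32 (SE 0.04, adjusted p = 6e-05, lower in 3 of 3 libraries), and in *C1qa*+ barcodes it was 0.21 higher than in *Cd209a*+ barcodes (SE 0.04, adjusted p = 0.0026, 3 of 3 libraries). For *C1qa*+ barcodes over cDC1s the test gave −0.11 (SE 0.04, adjusted p = 0.047), while CPM was higher in *C1qa*+ barcodes in 3 of 3 libraries. That value turned to 0.07 without TMM factors and to 0.00 (adjusted p = 0.99) without *Mki67* or *Top2a* barcodes, and leaving out the WT, *sGsn-/-* or *sGsn-/- Clec9a-/-* library raised the adjusted p to 0.16, 0.23 and 0.075 (0.016 to 0.99 over the alternatives). No direction is therefore given for *Ldha* between *C1qa*+ barcodes and cDC1s.

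**Figure D2:**
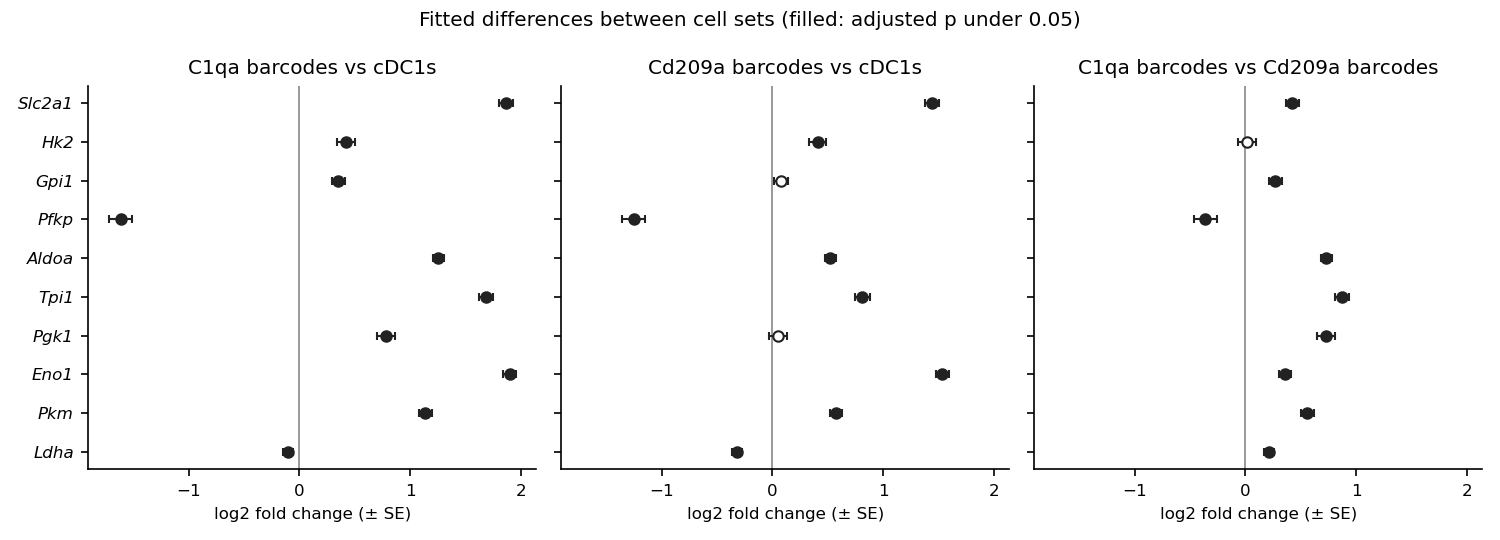
Log2 fold change (x axis) of the 10 glycolysis genes in each comparison of cell sets, with bars of 1 SE from edgeR over 3 libraries per set and filled points for an adjusted p under 0.05. *Pfkp* lies left of 0 in all 3 comparisons (−1.62, −1.25 and −0.36) and *Eno1* right of 0 (1.90, 1.54 and 0.36), while *Ldha* in *C1qa*+ barcodes over cDC1s (−0.11) turned to 0.07 without TMM factors.

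Other genes of glycolysis and pyruvate handling were read in the same way, transporters and the kinases of pyruvate dehydrogenase among them. Of 34 on the list, 24 were tested. So that no gene entered through 1 set alone, the lists were counted over genes with at least 10 UMIs in each library of both sets compared, a minimum chosen after the data were seen. In *C1qa*+ barcodes over cDC1s, 14 of 20 such genes were higher and 4 lower (median log2 fold change 0.73), beside 31.1% and 35.4% of all genes at that minimum. In *Cd209a*+ barcodes over cDC1s, 11 of 20 were higher and 4 lower (0.27), beside 27.8% and 30.4%. Between *C1qa*+ and *Cd209a*+ barcodes, 12 of 23 were higher and 3 lower (0.43), beside 17.1% and 17%. The genes under the minimum against cDC1s were *Pfkfb1*, *Pfkfb2*, *Pdk2* and *Ldhb*, and *Pfkfb1* alone between the other sets. *Gapdh*, whose enzyme works between *Tpi1* and *Pgk1*, had a mean of 578 ± 34.7, 933 ± 40.5 and 1361 ± 58.5 CPM (SD, n = 3) in cDC1s, *Cd209a*+ and *C1qa*+ barcodes. *Pgam1*, which precedes *Eno1*, had 227 ± 11.4, 294 ± 15.6 and 428 ± 18.9 CPM. The lactate exporter gene *Slc16a3* was at a mean of 8.24 CPM in cDC1s, 53.8 in *Cd209a*+ and 102 in *C1qa*+ barcodes, a log2 fold change over cDC1s of 3.46 in the last (adjusted p = 2.3e-10, higher in 3 of 3 libraries). *Ldhb*, the other lactate dehydrogenase gene, held 4, 3 and 0 UMIs in cDC1s, and no fold is given for it. The 4 genes lower in *C1qa*+ barcodes than in cDC1s were *Eno3*, *Adpgk*, *Bpgm* and *Pfkfb3*, with log2 fold changes of −1.05, −0.96, −0.53 and −0.51.

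Lists that surround the pathway were counted over the same minimum, in *C1qa*+ over cDC1s, *Cd209a*+ over cDC1s and *C1qa*+ over *Cd209a*+ barcodes in turn. Of all genes at the minimum, 31.1%, 27.8% and 17.1% were higher and 35.4%, 30.4% and 17% lower in these comparisons, with medians of −0.04, −0.03 and 0.00. Of 18, 18 and 20 genes known to respond to low oxygen, 13, 13 and 17 were higher and 1, 4 and 0 lower, with medians of 1.42, 0.65 and 0.88 (for the count of 0 from edgeR, 0 at an unadjusted p under 0.05 and 0 by DESeq2). The hypoxia-induced lipid droplet gene *Hilpda* was among those with the largest value in *Cd209a*+ barcodes over cDC1s (log2 fold change 3.38, adjusted p = 3.4e-10, mean 160.1 against 13.8 CPM, higher in 3 of 3 libraries). Of 8 pentose phosphate genes, 4, 3 and 3 were higher and 4, 2 and 2 lower (medians 0.19, 0.07 and −0.01): *Pgd* was 2.05 higher in *C1qa*+ barcodes than in cDC1s, and *Taldo1* had a log2 fold change of −1.19. Of 20 genes of the TCA cycle and pyruvate dehydrogenase, 8, 8 and 1 were higher and 4, 3 and 3 lower (medians 0.10, 0.09 and −0.01). Of 12 regulators, 4, 4 and 1 were higher and 6, 6 and 1 lower (medians −0.19, −0.22 and −0.04, without *Epas1*), and *Hif1a*, which encodes HIF-1α, had means of 71.1 CPM in cDC1s, 138 in *Cd209a*+ and 148 in *C1qa*+ barcodes. These counts are a description of each list.

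Shares of cells with a UMI were read for *Slc2a1*, *Pfkp* and *Ldha*. At full depth a UMI of *Slc2a1* was found in 15.3% of cDC1s, 38.2% of *Cd209a*+ and 49.6% of *C1qa*+ barcodes, and after thinning each cell to 3000 UMIs in 4.34%, 11.5% and 14.97%. *Pfkp* was found in 88.7%, 69.5% and 65.2% of cells, and after thinning in 56.2%, 31.5% and 25.4%. *Ldha* reached 96.9%, 97.7% and 97.7%, and after thinning 82.2%, 76.3% and 78.4%. No cell set in these libraries should lack these genes, so none gives their background. The shares of cDC1s with a UMI of *C1qa* (7.99%) and of *Cd209a* (9.66%) are at full depth, and were not computed after thinning. After thinning, the median cell held 6 UMIs of the 10 genes in each library's cDC1s and *Cd209a*+ barcodes, and 8, 8 and 9 in *C1qa*+ barcodes. The difference was larger in the upper range: the 90th percentile was 10 UMIs in cDC1s of every library, 12 in *Cd209a*+ and 21, 22 and 21 in *C1qa*+ barcodes, while the 10th percentile was 3 in all. A cDC1 showed a mean of 3.84, 3.83 and 3.83 of the 10 genes, a *C1qa*+ barcode 5.07, 5.19 and 5.27.

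Within the cDC1s, the deposited table holds 12 clusters, which the study groups as early (4 and 1), resting (5, 2, 3, 6 and 0) and activated (7, 9, 8 and 10), with cluster 11 set apart by mitochondrial transcripts. The clusters were called on the same counts, so their levels are described and not tested. The 10 genes did not share 1 order. The sum of the 10 ran over clusters 0 to 10 from 2269 ± 60.3 CPM (SD, n = 3) in cluster 6 to 1595 ± 128 in cluster 8, and among neighbours in that order only clusters 9 and 8, the last pair, did not overlap. Cluster 6, where *Pfkp* was highest, was also the shallowest of these, with a median of 8530.5 UMIs per cell against 13501 over all cDC1s; the part of depth in this order was not tested.

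Over clusters 0 to 10, *Pfkp* spread widest, from 698 ± 24.9 CPM in cluster 6 to 151 ± 9.02 in cluster 1, a ratio of 4.63, and in its order (6, 10, 2, 7, 9, 0, 3, 5, 8, 4, 1) 5 of 10 pairs of neighbours did not overlap: 6 over 10, 9 over 0, 0 over 3, 3 over 5, and 4 over 1. No share of neighbours apart is given for all genes, so the neighbours named for each gene are a description. *Ldha* ran from 737 ± 23.2 CPM in cluster 7 to 286 ± 45.3 in cluster 8 (ratio 2.58), with 9 over 8 the only neighbours apart. *Hk2* ran from 246 ± 45.8 CPM in cluster 10 to 86.7 ± 25.6 in cluster 8, apart only at 0 over 2. *Gpi1* ran from 246 ± 14.5 CPM in cluster 6 to 116 ± 12.5 in cluster 8, apart only at 7 over 8. For *Hk2*, clusters 2 and 8 overlapped. By mean, *Ldha*, *Hk2* and *Gpi1* were each lowest in cluster 8. *Pgk1*, by contrast, was highest there, from 238 ± 40.5 CPM down to 128 ± 9.19 in cluster 3, apart at 0 over 3. *Eno1* was highest in cluster 4 (103 ± 10.5 CPM) and lowest in cluster 6 (46.8 ± 7.34), apart at 1 over 5 and 3 over 6. *Aldoa* ran from 307 ± 21.9 CPM in cluster 1 to 179.8 ± 27.8 in cluster 6, apart at 0 over 3. *Pkm* (242 ± 31.2 CPM in cluster 1, 146 ± 18.8 in cluster 9), *Tpi1* (110.4 ± 11.6 in cluster 2, 75.9 ± 1.04 in cluster 9) and *Slc2a1* (29.6 ± 27.4 in cluster 10, 9.89 ± 0.603 in cluster 0) had no neighbours apart. Cluster 11 held 60 cells with a median of 2348 UMIs and 8.07% mitochondrial UMIs, and its *Hk2* level of 569.9 ± 84.2 CPM lay above that of cluster 10.

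**Figure D3:**
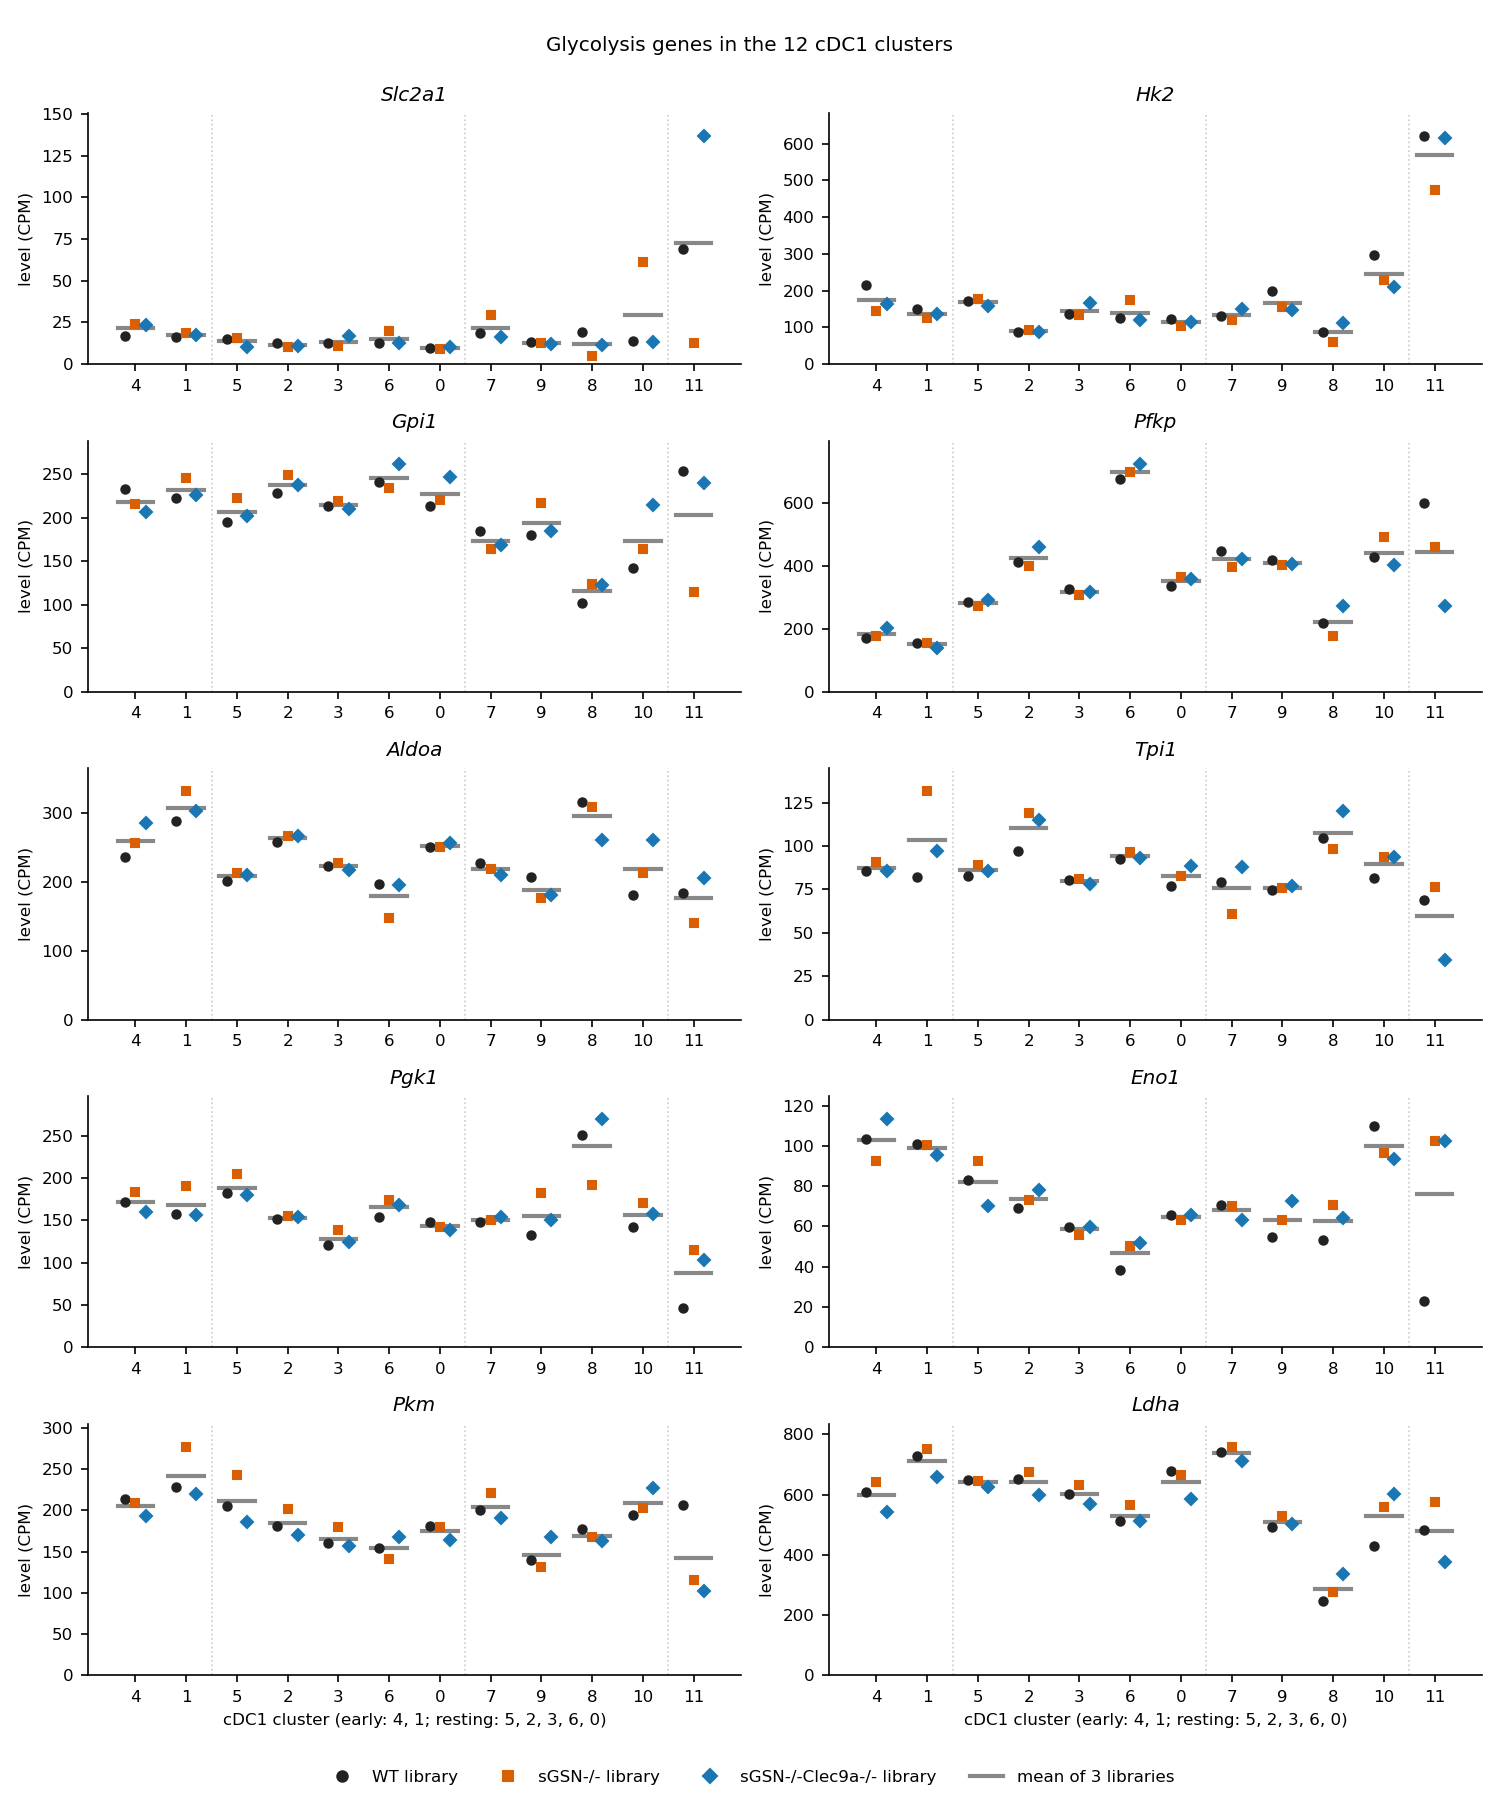
Level of each of the 10 glycolysis genes in CPM (y axis of each panel, from 0) in the clusters of cDC1s (x axis), with 1 point per library and a bar at the mean of 3 libraries. *Pfkp* stands highest in cluster 6 (698 CPM) and lowest in cluster 1 (151 CPM), and *Ldha* lowest in cluster 8 (286 CPM).

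Early against resting cDC1s, the 10 genes differed most at *Pfkp*. It had 162, 164 and 163 CPM in early clusters and 378, 369 and 407 in resting ones, 2.36-fold lower in the early ones. *Eno1* had 102, 97.7 and 102 CPM against 65.0, 68.2 and 66.9, a ratio of 1.51. Counted as genes whose libraries did not overlap and whose means differed by at least 1.5-fold, among those at 20 CPM or more in either group, these were 1 higher and 1 lower of 9 glycolysis genes, beside 5.31% higher and 7.42% lower of 4876 genes. *Hk2* (ratio 1.22), *Aldoa* (1.23), *Pgk1* (1.12) and *Pkm* (1.28) were also apart and higher in early clusters, by less than 1.5-fold. For genes apart by less than 1.5-fold, here and in the clusters below, no share of all genes is given. They are listed as a description, and nothing is read from their number. *Eno1* sat at the limit: its ratio was 1.48 without the WT library and 1.498 without the *sGsn-/- Clec9a-/-* library, 1.48 with TMM factors and 1.47 after thinning, and it was then not counted. *Slc2a1* was also apart (19.0 against 11.9 CPM) but under the minimum level. Without the WT library it passed, at a ratio of 1.69, through the early clusters alone, so nothing is read from that.

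Clusters 7 and 9 of the activated cells were compared with resting cDC1s in the same way. In cluster 7, 1 of 10 was higher and 0 lower (7.86% and 4.28% of all genes): *Slc2a1*, at 18.9, 29.4 and 16.5 CPM against 11.98, 11.8 and 12.03, a ratio of 1.81 that was 1.47 and no longer counted without the *sGsn-/-* library, nor after thinning. *Slc2a1* reached the minimum level only through cluster 7, so nothing is read from that count. *Gpi1* (ratio 0.764), *Aldoa* (0.924) and *Ldha* (1.18) were also apart in cluster 7, by less than 1.5-fold, which is a description without a share of all genes. *Pkm* and *Pfkp* overlapped, yet each library had more of them in cluster 7 than in its own resting cDC1s, and less of *Tpi1*. No share of all genes with such agreement is given, so nothing is read from it. Cluster 9 had 0 higher and 0 lower of 9 (5.28% and 2.30% of all genes). Genes apart by less than 1.5-fold there are listed as a description, without a share of all genes. *Hk2* lay above resting cDC1s (ratio 1.35), and *Aldoa* (0.797), *Ldha* (0.815), *Pkm* (0.815), *Tpi1* (0.840) and *Gpi1* (0.857) lay below.

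Cluster 8 had the largest share of all genes apart from resting cDC1s among the clusters compared, and the glycolysis genes lay on both sides. *Ldha* had 247, 276 and 336 CPM there against 635, 650.3 and 584, 2.18-fold lower, with no overlap. *Gpi1* had 102, 124 and 122 CPM against 217, 228 and 233, 1.95-fold lower, and *Pfkp* 217, 177 and 274 CPM, 1.73-fold lower. *Pgk1* was higher, at 251, 192 and 269.7 CPM against 148, 158 and 149 (ratio 1.57), and this was no longer counted without the *sGsn-/- Clec9a-/-* library (1.45), after thinning (1.46) or as a mean over cells (1.35). That made 1 higher and 3 lower of 9 genes, in a cluster where 19.0% of all genes were higher and 26.9% lower. *Hk2* (ratio 0.697), *Aldoa* (1.249) and *Tpi1* (1.19) were also apart, by less than 1.5-fold, and *Hk2* was counted as lower without that library (0.593) or after thinning (0.473).

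Cluster 10 had 3 higher and 0 lower of 10 genes, beside 12% and 12% of all genes. *Hk2* stood at 298, 229 and 211 CPM against 124, 125 and 124 in resting cDC1s, a ratio of 1.98. *Eno1* stood at 109.8, 96.7 and 93.7 CPM, a ratio of 1.501 that was 1.41 without the WT library and then not counted. *Slc2a1* had 4, 19 and 4 UMIs, or 14.2, 61.2 and 13.4 CPM, so its ratio of 2.48 rested on the *sGsn-/-* library and was 1.15 without it. With TMM factors over the sums *Hk2* (1.80) was the 1 gene counted, and *Eno1* (1.376) and *Slc2a1* (2.28) were not. *Slc2a1* reached the minimum level only through cluster 10, and of the 9 genes at that level in both groups 2 were higher. *Gpi1* (ratio 0.767) and *Pkm* (1.16) were also apart, by less than 1.5-fold. The cluster held 76 cells.

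Clusters 8 and 10 were also compared with each other. *Hk2* was 2.83-fold, *Pfkp* 1.98-fold, *Ldha* 1.85-fold and *Eno1* 1.60-fold lower in cluster 8, and *Pgk1* 1.52-fold higher, which made 1 higher and 4 lower of 10 genes, beside 15.9% and 23.4% of all genes. *Slc2a1* reached the minimum level only through cluster 10. *Pgk1* was no longer counted without the WT (1.41) or the *sGsn-/- Clec9a-/-* library (1.42), nor *Eno1* without the WT library (0.708) or with TMM factors (0.718). *Slc2a1*, at a ratio of 0.403 with overlap, was 1.13 without the *sGsn-/-* library and 0.219, now apart, without the WT library. *Tpi1* (ratio 1.20), *Pkm* (0.812) and *Gpi1* (0.670) were also apart, by less than 1.5-fold. *Gpi1* was counted as lower without the WT (0.652) or the *sGsn-/-* library (0.629), and *Aldoa* (1.35) as higher without the *sGsn-/- Clec9a-/-* library (1.59) or with TMM factors (1.52).

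Levels of other genes of the pathway were read in cluster 8. *Pfkfb3*, whose enzyme makes the activator of phosphofructokinase, had 136 CPM in cluster 8 against 26.2 in resting cDC1s (ratio 5.19). The muscle-type enolase gene *Eno3* had 138 ± 31.1 and 6.53 ± 0.932 CPM (SD, n = 3), *Slc2a6*, of the glucose transporter family, 34.9 and 2.50, and *Slc16a3* 25.9 and 6.41. These 3 reached the minimum level only through cluster 8, and the ADP-dependent glucokinase gene *Adpgk* (8.42 and 23.6 CPM) only through resting cDC1s, so nothing is read from their differences.

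Over the 12 clusters the 10 genes did not move as a block. Pearson's r was taken between log2(CPM + 1) of their mean levels. Of 45 pairs of the genes, it was positive in 23 and negative in 22, with a median of 9.3e-05. Without cluster 11 it was positive in 26 and negative in 19, with a median of 0.081. No such count is given for pairs of other genes. Among 2409 genes at 50 CPM or more, the 5 whose pattern was most like the mean of the 10 were *Cops6* (r = 0.899), *Dbi* (0.877), *Mrpl51* (0.876), *Pin4* (0.873) and *Wdr83os* (0.859). With the same mean, r of the 10 genes themselves ran from −0.344 for *Pfkp* to 0.847 for *Pkm*, so that mean does not stand for each of them. These values describe 12 clusters of the same libraries, whose depths differ, and carry no test.

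Between genotypes, the 10 genes in cDC1s differed little. Together they took 2072, 2122 and 2061 CPM, ratios of 1.02 (95% interval 1.01 to 1.04, counting error only) for *sGsn-/-* over WT and 0.971 (0.959 to 0.984) for *sGsn-/- Clec9a-/-* over *sGsn-/-*. Of 9 genes at 50 CPM or more, 0 were past a ratio of 5:4 in either direction in either comparison, and after thinning *Eno1* was, at 1.255 for *sGsn-/-* over WT. Among all genes that share was 1.07% higher and 1.15% lower in *sGsn-/-* over WT cDC1s, and 0.689% higher and 3.20% lower in *sGsn-/- Clec9a-/-* over *sGsn-/-* cDC1s. With 1 library per genotype there is no test.

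In *sGsn-/-* over WT cDC1s the ratios ran from 0.915 (0.873 to 0.958) for *Hk2* to 1.14 (0.995 to 1.32) for *Slc2a1*, with 8 of 10 above 1. *Tpi1* had 1.13 (1.07 to 1.20) and *Pkm* 1.11 (1.07 to 1.15). The value for *Slc2a1* rested on 373 and 452 UMIs, and was 0.833 after thinning. In *sGsn-/- Clec9a-/-* over *sGsn-/-* cDC1s they ran from 0.867 (0.831 to 0.905) for *Pkm* to 1.12 (1.08 to 1.15) for *Pfkp*, with 3 of 10 above 1, and *Ldha* had 0.911 (0.890 to 0.933). Several intervals leave out 1, yet they hold counting error alone and not the spread between pools. The median log2 ratio was 0.06 and −0.03 for the 9 genes at 50 CPM or more. For all genes at that level it was 0.01 and −0.07. The median absolute log2 ratio was 0.09 and 0.08 for these 9 genes beside 0.07 and 0.09 for all genes at that level. No share of all genes above 1 is given, so nothing is read from the counts above 1.

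The same ratios were taken in the other cell sets. In *Cd209a*+ barcodes they ran from 0.869 to 1.20 for *sGsn-/-* over WT and from 0.908 to 1.11 for *sGsn-/- Clec9a-/-* over *sGsn-/-* mice. In *C1qa*+ barcodes they ran from 0.872 to 1.27 and from 0.968 to 1.09. *Pfkp*, at 1.27 in *C1qa*+ barcodes of *sGsn-/-* over WT mice, was the 1 value past 5:4 in these sets. Barcodes outside the table in neither set, 13911 in all, had ratios from 0.698 to 0.992 and from 0.970 to 1.23, with *Hk2* (0.698, 171, 119 and 147 CPM by library) and *Slc2a1* (0.791, 44.7, 35.3 and 42.2 CPM) past 5:4 in *sGsn-/-* over WT mice. Over all barcodes *Hk2* had 0.781. No share of all genes past 5:4 is given outside the cDC1s, so nothing is read from the values past it there. *Slc2a1* in the barcodes of neither set also lay under the minimum of 50 CPM used for cDC1s. The part of the mix of cell types in these ratios was not tested. *Hk2* was the lowest of the 10 in *sGsn-/-* over WT mice in cDC1s, *Cd209a*+ and *C1qa*+ barcodes, at 0.915, 0.869 and 0.872, and was above 1 for *sGsn-/- Clec9a-/-* over *sGsn-/-* mice in each, at 1.06, 1.11 and 1.06; these are sets of the same 3 pools.

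**Figure D4:**
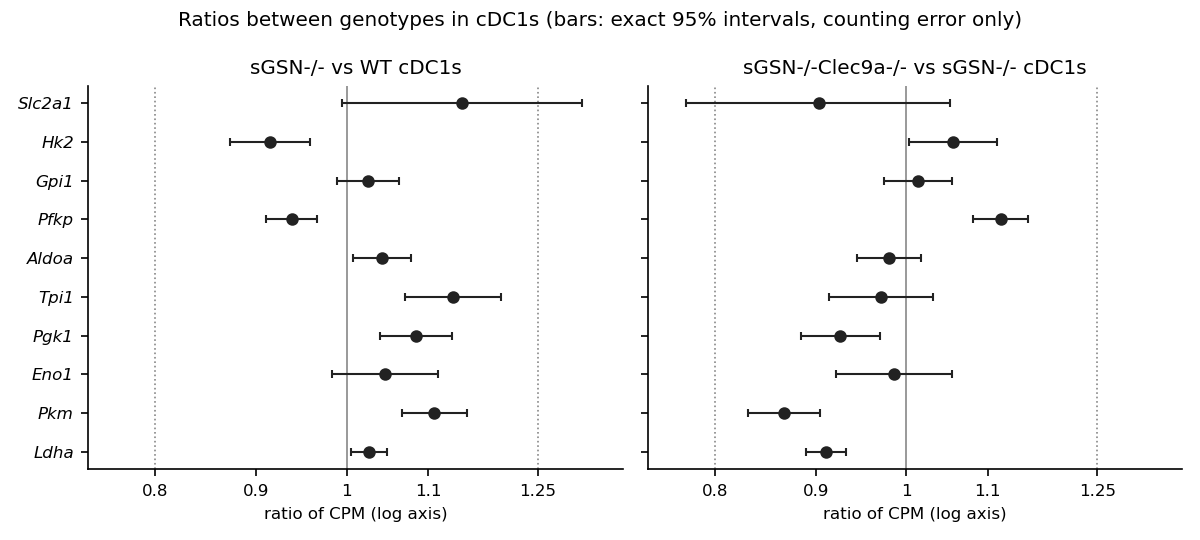
Ratio of CPM between genotypes in cDC1s (x axis, log scale) for each of the 10 glycolysis genes, with 95% intervals for counting error and 1 library per genotype. The ratios lie between 0.915 and 1.14 for *sGsn-/-* over WT and between 0.867 and 1.12 for *sGsn-/- Clec9a-/-* over *sGsn-/-* cDC1s.

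The promoters of the 10 genes were read for motifs, since HIF-1α and MYC are known to bind promoters of this pathway. In the 250 bases before the first start that RefSeq gives for each gene (GRCm38.p6), ACGTG, a core of the hypoxia response element, was found on either strand in 4 of 10, *Slc2a1*, *Hk2*, *Pgk1* and *Ldha*, and in 16.6% of 27025 promoters. The other core, GCGTG, was found in 3 of 10, *Slc2a1*, *Pfkp* and *Eno1*, and in 28.2% of all promoters. The E-box CACGTG, which contains ACGTG on both strands, was found in *Ldha*, 1 of 10, and in 6.05% of all promoters. A match is a stretch of letters and not a site shown to be bound. The promoters below belong to the 2 genes with the largest and the 2 with the smallest log2 fold change in *C1qa*+ barcodes over cDC1s, and none of the stretches shown holds a base of an annotated exon. They lie at chr4:119108495-119108710 (plus strand) for *Slc2a1*, chr4:150236458-150236707 (plus strand) for *Eno1*, chr7:46845554-46845803 (plus strand) for *Ldha* and chr13:6648778-6649021 (minus strand) for *Pfkp*, and capitals mark ACGTG on either strand, here with the whole E-box where there is one. *Ldha* held 5 matches, 2 E-boxes counted on both strands and 1 more, and the ACGTG of *Slc2a1* lies past the stretch shown. The *Ldha* window lies within the span given for that gene above.
Slc2a1: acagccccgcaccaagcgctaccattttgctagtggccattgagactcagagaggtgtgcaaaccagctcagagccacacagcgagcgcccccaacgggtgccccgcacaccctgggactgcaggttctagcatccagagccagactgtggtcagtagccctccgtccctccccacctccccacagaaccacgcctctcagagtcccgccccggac
Eno1: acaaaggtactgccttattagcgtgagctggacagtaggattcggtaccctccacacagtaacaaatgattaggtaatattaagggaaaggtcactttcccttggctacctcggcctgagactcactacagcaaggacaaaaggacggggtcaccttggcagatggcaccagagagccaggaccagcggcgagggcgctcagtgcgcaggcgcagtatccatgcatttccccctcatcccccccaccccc
Ldha: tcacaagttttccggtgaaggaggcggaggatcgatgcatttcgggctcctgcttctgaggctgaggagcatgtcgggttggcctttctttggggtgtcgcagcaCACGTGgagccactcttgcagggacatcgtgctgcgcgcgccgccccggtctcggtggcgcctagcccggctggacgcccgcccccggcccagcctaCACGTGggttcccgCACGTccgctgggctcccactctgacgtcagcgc
Pfkp: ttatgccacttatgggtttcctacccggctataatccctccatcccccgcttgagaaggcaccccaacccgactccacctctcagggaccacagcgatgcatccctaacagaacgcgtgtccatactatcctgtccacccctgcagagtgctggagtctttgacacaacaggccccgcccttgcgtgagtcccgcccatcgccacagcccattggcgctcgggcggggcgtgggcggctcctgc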

How the data were processed

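The authors deposited raw counts of UMIs per gene and barcode for 3 libraries (Cell Ranger 6.0.1 per the file headers, GRCm38/mm10) and a table of 5806 cDC1s with clusters, made with Seurat 4.0.0 per the labels. The paper names Seurat version 3, run in R 4.0.0. Barcodes outside the table were kept with at least 200 genes and at most 16.7% mitochondrial UMIs (the mean plus 2 SD), which left out 1351. Of 529 barcodes with at least 3 UMIs of both *C1qa* and *Cd209a*, each went to the gene with more, and 20 ties to neither. No doublet caller was run; as an alternative, the 6% of barcodes with most UMIs were left out. Libraries shared 26, 28 and 27 barcode sequences by pair, 7 of them among the cDC1s of the table, and were kept apart. UMIs per cell in the table equalled the matrix sums for 4559 of 5806 cells and differed by at most 34 in the rest.

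UMIs were summed per library and cell set and fitted with edgeR 4.0.16 (R 4.3.3; TMM factors, filterByExpr, quasi-likelihood test, Benjamini-Hochberg adjusted p under 0.05 over all 12832 genes tested). The 3 sums of 1 library come from the same pool of mice: their deviations from the cell set means correlated at 0.218 to 0.427 across genes. With the library as a replicate block, *Slc2a1* in *C1qa*+ barcodes over cDC1s had a log2 fold change of 1.87, and *Ldha* an adjusted p of 0.016. SE was taken from the F statistic. Clusters and genotypes were described in CPM, with exact Poisson 95% intervals for single libraries (counting error only). Alternatives were DESeq2 1.42.0, each library left out, no TMM factors, every gene with a UMI, 1 or 10 UMIs for the cell sets, cells thinned to 3000 UMIs (which left out 210 cDC1s, 45 of them in cluster 11), no *Mki67* or *Top2a* barcodes, no barcode filters and, for clusters and genotypes, other totals, weights and ratios. Python 3.11.15, numpy 2.4.6, scipy 1.17.1, pandas 2.3.3 and matplotlib 3.10.9 were used.

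The 10 genes and the lists were chosen with earlier results of these data known. Besides the 10 genes, the text names *Gapdh*, *Pgam1*, genes of each list with the largest or smallest log2 fold change, list genes counted in the clusters, marker genes, and the 5 genes most like the mean of the 10 over the clusters. *Hif1a*, *Pfkl*, *Pfkm* and *Eno1b* were named after their values were seen where that rule did not cover them. Several of the 10 genes overlap another annotated gene (*Slc2a1*, *Hk2*, *Gpi1*, *Pfkp*, *Aldoa*, *Tpi1* and *Pkm*), and reads in a shared stretch were not reassigned. Imaging and flow cytometry of the study were not analysed here.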

Additional observations from a re-analysis of the deposited data

How the results depend on the processing

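Of 390 alternative values of the 10 glycolysis genes in the tested comparisons, 373 kept their direction and their side of the threshold, 6 lost the call, 3 gained it and 8 turned sign. Those that turned were *Ldha* in *C1qa*+ barcodes over cDC1s (0.071 without TMM factors, 0.00076 without *Mki67* or *Top2a* barcodes), *Pgk1* in *Cd209a*+ barcodes over cDC1s (−0.11 thinned, −0.14 without the 6% of barcodes with most UMIs, −0.035 without *Mki67* or *Top2a* barcodes, −0.021 to 0.100 with 1 library left out) and *Hk2* in *C1qa*+ over *Cd209a*+ barcodes (−0.085 at 10 UMIs or more, −0.0023 to 0.041 with 1 library left out); the cause was not tested. The count of lower glycolysis genes in *C1qa*+ barcodes over cDC1s was 1 without TMM factors, without the low-count filter, thinned, without *Mki67* or *Top2a* barcodes and without any 1 library. Among all genes, thinning gave 2812 lower there, and 2636 higher and 2316 lower in *Cd209a*+ barcodes over cDC1s (2283 lower without TMM factors). With 1 library left out, *C1qa*+ over *Cd209a*+ barcodes had 1438 to 1705 genes higher and 1352 to 1657 lower, and 0 to 1 glycolysis genes lower.

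For the clusters against resting cDC1s, a ratio of 5:4 gave 698 genes higher and 862 lower in early clusters (2 glycolysis genes higher), 627 and 806 in cluster 7 (1 lower), 490 and 449 in cluster 9 (1 higher, 1 lower), and 945 higher in cluster 10 (1 glycolysis gene lower). Averaging each cell's CPM left 0 glycolysis genes higher in early clusters, in cluster 8, and in cluster 8 over 10. A total without mitochondrial and ribosomal protein genes gave 2 higher in early clusters, 0 in cluster 8 and in cluster 8 over 10, and 376 and 181 of all genes lower in clusters 7 and 9. TMM factors gave 0 glycolysis genes higher in early clusters, 1 in cluster 10 and 2 in cluster 8 over 10. Leaving out the 6% of barcodes with most UMIs gave 0 in early clusters. Thinning gave 0 higher in clusters 7 and 8, and 393 and 307 of all genes lower in clusters 7 and 9. With 1 library left out, 0 to 1 glycolysis genes were higher in early clusters, cluster 7, cluster 8 and cluster 8 over 10, and 153 to 201 genes lower in cluster 9.

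For *sGsn-/-* over WT cDC1s, thinning gave 47 genes higher, 45 lower and 1 glycolysis gene higher, a limit of 1.5-fold 7 and 8, and equal weights for the clusters 91 lower. For *sGsn-/- Clec9a-/-* over *sGsn-/-* cDC1s, equal weights gave 42 higher and 167 lower, a total without mitochondrial and ribosomal protein genes 28 higher, a limit of 1.5-fold 4 and 25, and thinning 151 lower. *Slc2a1* rested on few UMIs in cluster 10, at 4, 19 and 4 by library.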
